A study of Mus musculus with 8 samples.

Results

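The 34 genes described here are mouse genes known to be imprinted, taken by gene symbol from the count tables. All 34 were present, among 53507 gene rows in all. Of these 34, 27 had enough counts for testing, and 7 did not: Igf2, Rtl1, Zim1, Ddc, Phlda2, Slc22a18 and Snurf.

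An imprinted gene is expressed mainly from the copy inherited from 1 parent, because DNA methylation laid down in the egg or sperm marks one copy of a control region. The genes lie in domains that combine protein-coding genes with long non-coding RNAs, and their products act in fetal growth, in the placenta, in metabolism and in the developing brain. The factor ZFP57 protects these methylation marks by binding the sequence TGCCGC in its methylated form. The counts do not separate the parental copies, so levels of each gene were measured here and imprinting itself was not.

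RNA was sequenced from mouse brain cells positive for tdTomato, a red fluorescent protein, which the labels call progenitor cells; the labels do not give the promoter or Cre line behind the reporter. The 4 groups had 2 libraries each. Embryonic cells carrying the reporter were labelled wild type and taken at embryonic day 13 (E13) or 15 (E15). Postnatal cells carrying the same reporter were taken at postnatal day 12 (P12), either from pups kept in normal air (normoxia) or from pups reared in 10% oxygen for 8 days, from P3 to P11 (hypoxia), whose foster mothers were exchanged during that time. Every library started from 400 pg of total RNA. The labels do not say whether the 2 libraries of a group came from different animals, so a p-value here measures the spread between libraries, which may be technical. In the main edgeR tests the 4 groups shared a common estimate of that spread for each gene. The p-values of hypoxia against normoxia therefore rest partly on the embryonic replicates. Those were more alike across genes (r = 0.946 at E13 and 0.955 at E15) than the P12 replicates (0.771 in normoxia, 0.696 in hypoxia).

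Upstream DNA is shown for the genes that the results below turn on. The stretch between the divergent starts of Peg3 and Usp29 is given because Usp29 was called in hypoxia and its neighbour Peg3 was not, and the 250 bases before the start because Meg3 had the smallest p of the imprinted genes in hypoxia against normoxia, Nnat led in the embryo, and Mest held 2 motif matches. Each is RefSeq sequence on GRCm38.p6, written 5′ to 3′ in the direction of the gene (for Peg3-Usp29 in the direction of Peg3). Capitals mark TGCCGC on either strand (GCGGCA where it lies on the other strand) and the palindrome TGACGTCA, the consensus of the cAMP response element. The positions are chr7:6730420-6730582 on the minus strand for Peg3-Usp29, chr12:109540746-109540995 on the plus strand for Meg3, chr2:157559828-157560077 on the plus strand for Nnat and chr6:30737800-30738049 on the plus strand for Mest.
Peg3-Usp29: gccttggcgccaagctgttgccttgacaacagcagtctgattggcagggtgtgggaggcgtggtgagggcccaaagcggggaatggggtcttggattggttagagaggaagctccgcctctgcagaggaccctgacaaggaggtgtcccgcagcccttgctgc
Meg3: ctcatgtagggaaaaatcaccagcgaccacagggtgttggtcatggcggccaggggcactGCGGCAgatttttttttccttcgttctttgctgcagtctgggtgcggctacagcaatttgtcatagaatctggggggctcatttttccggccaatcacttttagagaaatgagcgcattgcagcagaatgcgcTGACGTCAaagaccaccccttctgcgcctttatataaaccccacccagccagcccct
Nnat: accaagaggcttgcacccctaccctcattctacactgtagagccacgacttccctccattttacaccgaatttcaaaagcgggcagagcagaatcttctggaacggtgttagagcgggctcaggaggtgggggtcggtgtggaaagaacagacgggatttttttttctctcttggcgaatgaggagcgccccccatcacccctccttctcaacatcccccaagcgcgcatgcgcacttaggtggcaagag
Mest: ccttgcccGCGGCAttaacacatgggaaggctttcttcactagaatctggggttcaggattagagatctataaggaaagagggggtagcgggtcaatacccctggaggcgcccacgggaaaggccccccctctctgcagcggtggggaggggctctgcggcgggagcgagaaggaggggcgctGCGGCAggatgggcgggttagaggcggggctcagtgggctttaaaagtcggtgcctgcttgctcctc

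RefSeq windows of 300 bases, 250 before and 50 after a start, were found for 27 of the 34 genes. TGCCGC, searched on both strands, was present in at least 1 window of 11 of these 27 genes (40.7%), against 13.1% of 27025 genes. Counted by window the share was 28.6%, against 11.6% of all windows. Snrpn and Snurf have the same window with a match, and the 2 Mest windows with matches nearly coincide, so these matches are counted more than once. CpG dinucleotides were counted in the window of each gene that held most of them, with a median of 15 over the imprinted genes against 8 over all genes. The 27 imprinted genes had 42 windows and the 27025 genes had 32851, and more windows per gene favour a higher maximum. The part of CpG density or of window number in the difference in matches was not tested. Zdbf2 had 3 matches in 1 window and Mest had 2. TGACGTCA, looked for after it had been seen in the Meg3 window, occurred in 4 of the 42 windows of imprinted genes, against 1.79% of all windows. These were the windows of Meg3, Zdbf2 and the overlapping pair Peg3 and Usp29, where the same site may be counted for both genes. The windows reach past the stretches printed above. The TGACGTCA of Peg3 and Usp29 and the TGCCGC match in the Nnat window do not lie within those stretches, which therefore show no capitals. A match describes the letters of these windows and is not evidence that a factor binds there.

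Libraries held 36252027 to 47084796 counts in gene rows. Genes reaching 10 counts numbered 17520 to 18318 per embryonic library, 14129 and 16468 at P12 in normoxia and 12785 and 11695 after hypoxia. Replicates correlated across genes at r = 0.946 (E13), 0.955 (E15), 0.771 (P12 normoxia) and 0.696 (P12 hypoxia). In markers, the libraries of the 2 ages were unlike. Astrocyte markers summed to 7826 to 10300.0 CPM (counts relative to a normalised mega-count library) at P12 against 10.8 to 40.2 in the embryo, and the radial glia and progenitor list to 5346 to 7628 against 402 to 544. That progenitor sum was uneven, with Slc1a3 alone at 2412 to 3435 CPM at P12. In normoxia 10 of its 15 genes lay wholly above the embryo and 0 below, against 27.3% and 32.1% of all tested genes. Nes, Vim, Prom1, Hopx and Mki67 overlapped. Vim had 199 and 208 CPM at E13, 69.5 and 69.2 at E15 and 22.1 to 140 at P12. Neuron markers summed to 4775 to 5239 CPM in the embryo, led by Neurod6 at 1454 to 1915, against 278 to 772 at P12. Blood markers summed to at most 4.31 CPM at P12. In bulk RNA a lower level can come from fewer cells of a type or from less RNA per cell, and these cannot be told apart.

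The 34 genes together took 0.58% and 0.443% of the counts in the normoxic P12 libraries, 0.285% and 0.359% in the hypoxic, 0.36% and 0.375% at E13 and 0.284% and 0.301% at E15. The largest part of the P12 share was a single gene, Impact. Without it the share was 0.169% and 0.22% in normoxia, 0.0831% and 0.0795% in hypoxia and 0.28% to 0.371% in the embryo. Per kilobase of exon the most abundant imprinted genes were Nnat in the embryo (673 CPM per kb at E13, 541 at E15) and Impact at P12 (844 in normoxia, 676 in hypoxia), with Snrpn next at P12 (198 in normoxia, 140.2 in hypoxia).

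**Figure D1:**
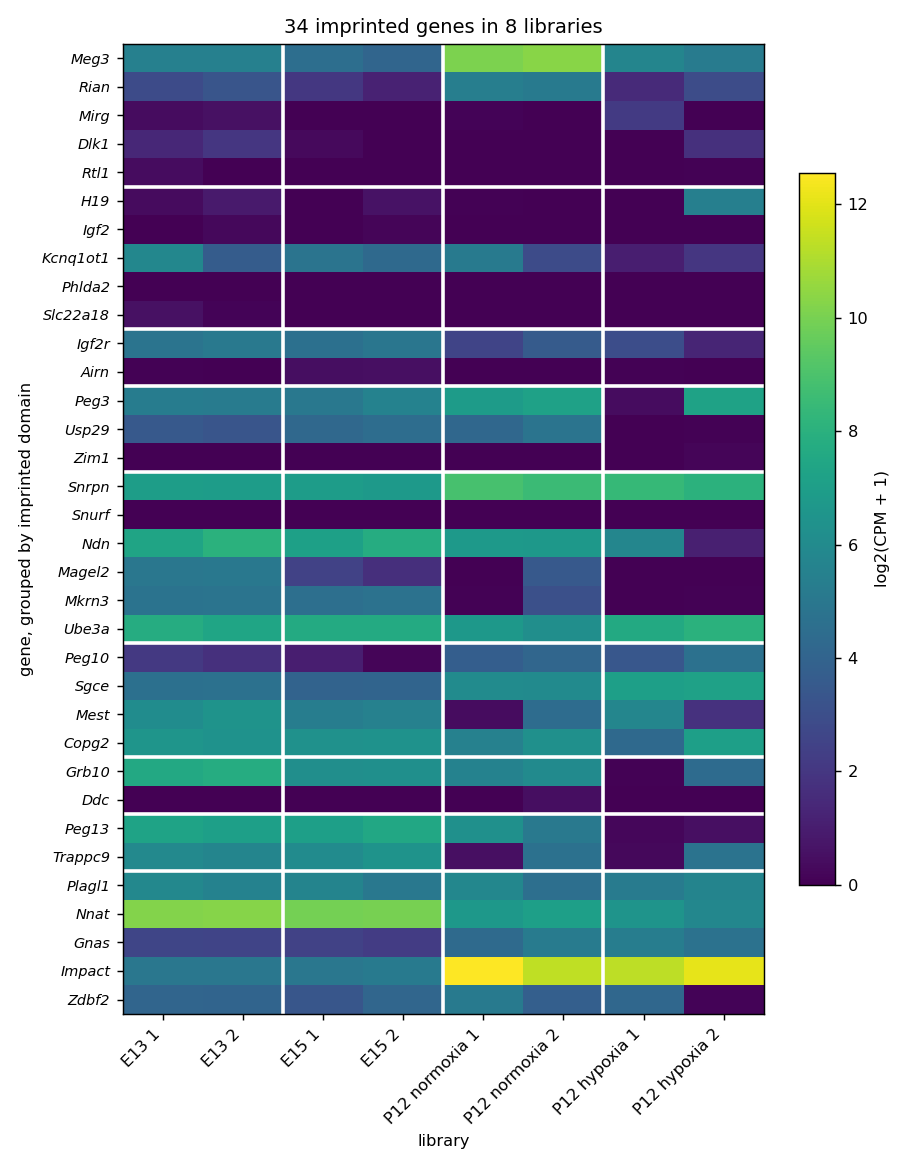
Level of each of the 34 imprinted genes (rows, in blocks by domain) in each of the 8 libraries (columns), as log2(CPM + 1) on a colour scale. Impact stands out at P12 (2555 to 6020.0 CPM) and Nnat in the embryo (964 to 1258 CPM), Meg3 is brightest in the 2 normoxic P12 libraries, and Phlda2 and Snurf are at 0 throughout.

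Replicates of the same group were alike in the embryo and often unlike at P12. Over the genes with more than 3 counts in both libraries of a group, the median ratio of the higher to the lower library was 1.15 at E13 (27 genes), 1.24 at E15 (24), 1.58 in normoxia (21) and 2.51 in hypoxia (18). The widest gap was that of Peg3 in hypoxia, at 0.336 and 149 CPM, a ratio of 443. Mest differed 65.6-fold between the normoxic libraries.

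**Figure D2:**
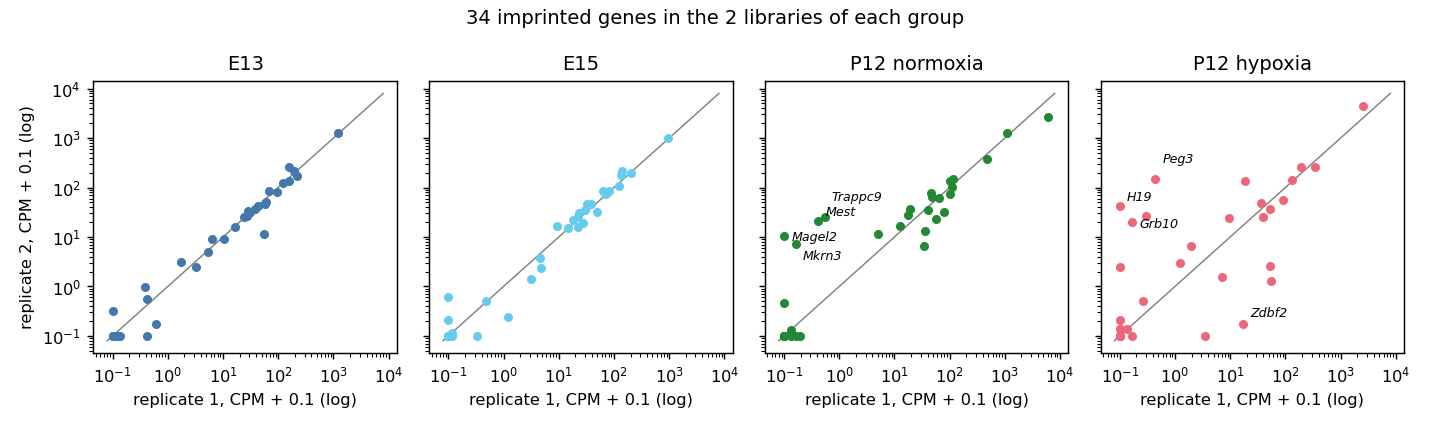
CPM + 0.1 of the 34 imprinted genes in replicate 2 against replicate 1 of each group, on log axes, with the line of equality. Points lie along the line at E13 and E15 (median ratios 1.15 and 1.24) and scatter in both P12 groups (1.58 in normoxia, 2.51 in hypoxia); the 4 widest gaps in each P12 group are named.

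Between normoxia and hypoxia at P12, the question of the series, 3 of the 27 tested genes fell after hypoxia: Meg3, a maternally expressed long non-coding RNA, Peg13, a non-coding RNA inside an intron of Trappc9, and Usp29, a ubiquitin-specific protease gene. No imprinted gene rose. Tests are edgeR quasi-likelihood tests with Benjamini-Hochberg adjustment over all 19936 genes tested, with calls at 0.05. Of all tested genes, 3.02% were called, 2.82% lower and 0.196% higher. The median log2 fold change of the 27 genes was −0.50, against 0 over all tested genes. The libraries of the conditions did not overlap for 12 of the 27, against 33.2% of all tested genes: 2 were higher after hypoxia (Sgce and Ube3a), against 13.1% of all tested genes, and 10 were lower, against 20.1%. Fewer genes reached 10 counts after hypoxia (12785 and 11695) than in normoxia (14129 and 16468), and what part this has in the lower levels was not tested. All 3 calls were lost in a fit of the P12 libraries alone (adjusted p = 0.341 for each, edgeR), with limma-voom (adjusted p = 0.386 to 0.573) and when any 1 embryonic library was left out (E13 replicate 1 or 2, E15 replicate 1 or 2; adjusted p = 0.151 to 0.155). In those fits the log2 fold change of Meg3 was −4.75 to −4.74.

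**Figure D3:**
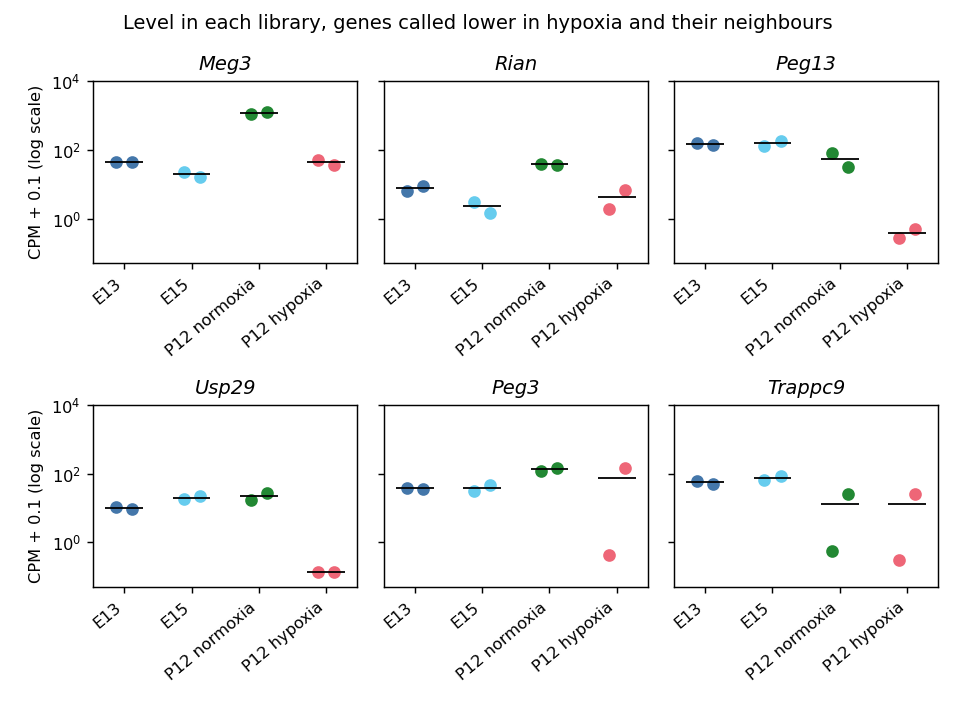
CPM + 0.1 (log axis) in each library (points) and the mean of the 2 libraries (bars) for the 3 genes called lower in hypoxia and a neighbour of each in its domain. Meg3, Peg13 and Usp29 are low in both hypoxic libraries, while Peg3 and Trappc9 have one library at 149 and 26.1 CPM and the other near 0.

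Between the embryonic stages no imprinted gene was called by edgeR, 1 of 27 had an unadjusted p under 0.05 (Meg3), and 0.0% of all genes were called, with 3.46% under an unadjusted 0.05. DESeq2 called 1 of the 27 (Meg3, adjusted p = 0.0107), limma-voom 4 and edgeR on the embryonic libraries alone 1. Meg3 was not among the genes called by limma-voom or by edgeR on the embryonic libraries alone. The libraries did not overlap for 4 genes higher and 12 lower at E15, against 23.6% and 25.8% of all genes (49.4% in either direction). Blood markers summed to 4783 and 16100.0 CPM at E13 and to 20.5 and 85.6 at E15, and 7 of 7 lay lower at E15 without overlap. Of these 7, edgeR called 0 (6 had an unadjusted p under 0.05), DESeq2 4 and limma-voom 2, and their part in the imprinted genes' differences was not tested. The median log2 fold change of the imprinted genes was −0.31, against 0.00 over all genes.

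Normoxic P12 cells differed from the embryo (the mean of E13 and E15) in 8 of 27 imprinted genes. Impact, Meg3, Rian, Gnas, Snrpn and Sgce were higher, and Nnat and Ube3a lower. Of all tested genes, 17.8% were called, 12.1% higher and 5.68% lower. Hypoxic P12 cells, set against the same embryonic libraries, differed in 9: Impact, Peg10, Sgce, Gnas and Snrpn were higher, and Nnat, Peg13, Usp29 and Mkrn3 lower, where 26.1% of all genes were called, 13.2% higher and 12.9% lower. The P12 libraries lay wholly above the embryonic ones for 8 genes and wholly below for 10 in normoxia, against 27.3% and 32.1% of all genes (59.4% in either direction), and for 5 and 10 in hypoxia, against 21.3% and 36.3% (57.6%). The median log2 fold changes were −0.45 in normoxia and −0.15 in hypoxia, against −0.04 and −0.43 over all genes. The scaling bears on these counts. With library totals in place of the TMM factors, an alternative chosen once the files were at hand, the median of all genes shifted by −0.80 (normoxia) and −0.89 (hypoxia) on the log2 scale, and the calls became 3 higher and 3 lower in normoxia and 2 higher and 6 lower in hypoxia. Impact and Nnat in both comparisons, Meg3 and Snrpn in normoxia, and Sgce and Usp29 in hypoxia were called in all 16 alternatives run.

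**Figure D4:**
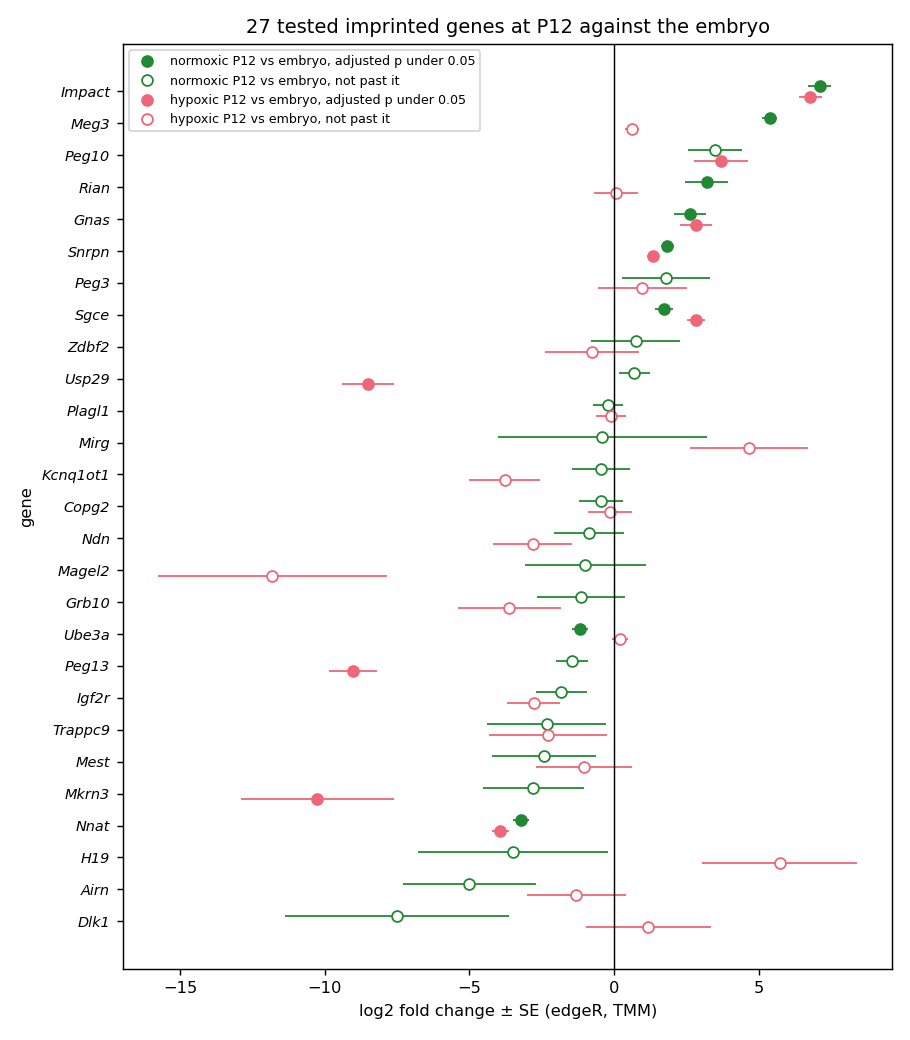
Fitted log2 fold change ± SE (edgeR, TMM scaling) of the 27 tested genes in normoxic and in hypoxic P12 cells, each against the mean of E13 and E15, ordered by the normoxic value; filled points had an adjusted p under 0.05. The 2 comparisons share the embryonic libraries, and fitted values of genes with 2 or fewer counts in a group (Magel2, Mkrn3, Usp29, H19, Airn, Dlk1) are not bounds.

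In the Dlk1-Dio3 domain on chromosome 12, the paternal copy expresses the protein genes Dlk1, a transmembrane protein of the Notch ligand family, and Rtl1, derived from a retrotransposon. The maternal copy expresses Meg3, Rian, which hosts small nucleolar RNAs, and Mirg, which hosts microRNAs. Meg3 (chr12:109541001-109571726, GRCm38, plus strand) was at 1096 and 1293 CPM in normoxia, 52.1 and 36.4 in hypoxia, 42.9 and 42.8 at E13 and 22.5 and 16.1 at E15. Both normoxic libraries stood far above all the others, at ranks 176 and 109 of the gene rows, where the other libraries had it between ranks 4399 and 7933. The log2 fold change was −4.76 (SE 0.34, adjusted p = 0.0183, edgeR) in hypoxia against normoxia. Normoxic P12 cells exceeded the embryo by 5.38 (SE 0.26, adjusted p = 0.00032, edgeR), and in hypoxic cells the value was 0.62 (SE 0.24, adjusted p = 0.11, edgeR), which became −0.28 (adjusted p = 0.557) with total-count scaling. Of the exonic bases of Meg3, 8.29% are shared with other genes.

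Rian (chr12:109603940-109661716) had 39.7 and 35.2 CPM in normoxia, 1.82 and 6.62 in hypoxia, 6.28 and 8.82 at E13 and 3.05 and 1.32 at E15. The normoxic libraries were again above all the others. Its log2 fold change in hypoxia was −3.15 (SE 0.96, adjusted p = 0.191, edgeR) and did not pass, though DESeq2 called it (adjusted p = 0.0062). Normoxic cells exceeded the embryo by 3.20 (SE 0.75, adjusted p = 0.0372, edgeR), a call lost without either normoxic library (0.119 without replicate 1, 0.0695 without replicate 2) and without any 1 embryonic library (0.153 to 0.197). The other 3 genes of the domain were low: Mirg reached 3.40 CPM in hypoxic replicate 1 and at most 0.463 elsewhere, Dlk1 had 1.66 and 2.99 CPM at E13, 2.37 in hypoxic replicate 2 and at most 0.229 elsewhere, and Rtl1 never exceeded 0.322. None passed in any comparison.

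Meg3 and Rian are known to be abundant in neurons, so neuron markers are given beside them. Of 10 neuron markers, 3 fell after hypoxia and none rose: Snap25, a synaptic vesicle fusion protein, had 85.8 and 87.6 CPM in normoxia and 0.605 and 0.333 in hypoxia, Stmn2, a neuronal tubulin-binding protein, had 29.3 and 40.5 against 0.101 and 0.074, and Ina, an intermediate filament, had 38.8 and 44.8 against 0.135 and 0.185. Syt1 (130 and 58.6 CPM in normoxia, 0 and 0.111 in hypoxia) and Rbfox3 (65.5 and 51.3 against 0.101 and 7.14) were lower without being called. In all, 5 of 10 lay below normoxia without overlap and 1 above, against 20.1% and 13.1% of all tested genes. The 1 above was Map2, with 80.3 and 151 CPM in normoxia and 178 and 310 in hypoxia. Of all tested genes, 2.82% were called lower and 0.196% higher. The list sum did not move one way, at 591 and 654 CPM in normoxia and 278 and 772 in hypoxia. No marker was at 0 in both hypoxic libraries. In the embryo, where the list summed to 4775 to 5239 CPM, Meg3 was at 16.1 to 42.9. Oligodendrocyte lineage markers summed to 562 and 698 CPM in normoxia and 1689 and 3273 in hypoxia. Without overlap, 6 of 10 lay above normoxia and 0 below, against 13.1% and 20.1% of all tested genes. Of these 10, edgeR called 0 (4 had an unadjusted p under 0.05), limma-voom 0 and DESeq2 3, all higher. The part of either cell type in the Meg3 and Rian difference was not tested.

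In the Peg3 domain on chromosome 7 the divergent, paternally expressed genes Peg3, a zinc finger protein, and Usp29 share a start region. Usp29 (chr7:6730578-6967219) was at 17.5 and 27.7 CPM in normoxia, 10.3 and 8.96 at E13 and 18.2 and 21.8 at E15, and had 1 count in each hypoxic library. All 6 other libraries were above both hypoxic ones. The ratio of normoxia to hypoxia was 639 (95% counting interval 176.5 to 5279; adjusted p = 0.0217, edgeR), and that of embryo to hypoxia was 426 (118 to 3517; adjusted p = 0.00239, edgeR). These intervals cover counting error only. Of the exonic bases of Usp29, 14.3% are shared with Zim3 on the opposite strand, which had 0 counts in every library.

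Peg3 (chr7:6703892-6730431) was at 117 and 146 CPM in normoxia, 37.6 and 36.6 at E13 and 31.8 and 45.8 at E15, and at 0.336 and 149 in hypoxia. In hypoxic replicate 1 both genes were near 0, and hypoxic replicate 2 had Peg3 at the level of the normoxic libraries with 1 count of Usp29, so the contrast between the neighbours rests on 1 library and was not tested. No comparison of Peg3 passed: the log2 fold change was −0.82 (SE 1.84, adjusted p = 0.94, edgeR) in hypoxia and 1.79 (SE 1.53, adjusted p = 0.453, edgeR) in normoxic P12 cells against the embryo. Zim1, a zinc finger gene next to Peg3, never exceeded 0.111 CPM. The stretch between the Peg3 and Usp29 starts printed above is 163 bases long and held 5 CpGs and 0 matches to TGCCGC.

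In the Peg13-Trappc9 domain on chromosome 15, Peg13 (chr15:72805600-72810324) had 157 and 137 CPM at E13, 133 and 182 at E15, 78.9 and 32.4 in normoxia, and 0.168 and 0.407 in hypoxia. Both hypoxic libraries were far below the other 6. The log2 fold change was −7.59 (SE 0.79, adjusted p = 0.0217, edgeR) against normoxia and −9.04 (SE 0.83, adjusted p = 0.00144, edgeR) against the embryo, the latter lost with limma-voom (adjusted p = 0.104). Normoxic cells were below the embryo by 1.45 (log2 fold change −1.45, SE 0.54, adjusted p = 0.123, edgeR), which passed only with total-count scaling (0.0254). Trappc9, which encodes a subunit of the TRAPP vesicle-trafficking complex and whose intron holds Peg13 on the same strand, was at 58.9 and 50.9 CPM at E13, 64.7 and 85.1 at E15, 0.445 and 25.03 in normoxia and 0.202 and 26.1 in hypoxia. Each P12 group had 1 library near 0, and no comparison passed.

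The Snrpn domain on chromosome 7 corresponds to the human region of Prader-Willi and Angelman syndromes. Snrpn, which encodes the brain splicing protein SmN and is expressed from the paternal copy, had 125 and 121 CPM at E13, 122 and 109 at E15, 477 and 378 in normoxia and 342 and 263 in hypoxia. All 4 P12 libraries were above all embryonic ones. The log2 fold change against the embryo was 1.84 (SE 0.21, adjusted p = 0.00399, edgeR) in normoxia and 1.34 (SE 0.21, adjusted p = 0.009, edgeR) in hypoxia, the latter lost without any 1 embryonic library (0.0598 to 0.0664) and with total-count scaling (log2 fold change 0.44, adjusted p = 0.226). Hypoxia and normoxia differed by −0.50 (SE 0.26, adjusted p = 0.37, edgeR). The files list Snurf, whose annotated exons all lie within those of Snrpn, at 0 in every library, so its level is uncertain, and 34.1% of the exonic bases of Snrpn itself are shared with other genes, most of them with the read-through gene Gm38393 (0.333 to 10.6 CPM).

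Ube3a, the ubiquitin ligase gene of Angelman syndrome, expressed from the maternal copy in neurons, had 215 and 168 CPM at E13, 204 and 201 at E15, 101 and 73.9 in normoxia and 194 and 259 in hypoxia. The normoxic libraries were the lowest. Normoxic cells were below the embryo (log2 fold change −1.17, SE 0.28, adjusted p = 0.0409, edgeR), a call lost in 10 of 16 alternatives, among them relative log expression scaling (0.0661), without normoxic replicate 1 (0.0775) or 2 (0.11) and without any 1 embryonic library (0.142 to 0.186). In hypoxia against normoxia the value was 1.37 (SE 0.31, adjusted p = 0.0946, edgeR), which passed with DESeq2 (0.00184) and without hypoxic replicate 1 (0.0298). Of its exonic bases, 27.3% are shared with genes on the opposite strand, including Snhg14, the source of its paternal antisense transcript in neurons. The strand setting of the counting was not given in the sources used here, so reads of Ube3a and its antisense partner cannot be told apart there. Snhg14 itself had 67.5 and 9.84 CPM in normoxia and 27.04 and 10.9 in hypoxia.

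The 3 intronless paternal genes of the domain were low in some P12 libraries and not in others. Ndn, which encodes necdin, a growth suppressor of neurons, had 159 and 261 CPM at E13, 138 and 217 at E15, 111 and 101 in normoxia and 53.8 and 1.18 in hypoxia. Its groups in hypoxia and normoxia did not overlap, but the difference of −1.95 (SE 1.41, adjusted p = 0.563, edgeR) did not pass. Magel2, an enhancer of ubiquitin ligases, had 31.1 and 31.3 CPM at E13, 4.62 and 2.25 at E15, 0 and 10.4 in normoxia and 0 in both hypoxic libraries, which is at least 163-fold below the embryo taking 3 counts in each library as the floor (adjusted p = 0.0872, edgeR). Mkrn3, a makorin ubiquitin ligase known as a brake on puberty, had 26.6 and 27.02 CPM at E13, 22.6 and 25.8 at E15, 0.0635 and 7.27 in normoxia and 0 and 0.037 in hypoxia.

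For Mkrn3 the ratio of embryo to hypoxic P12 rested on 1 count in hypoxia and was 1449 (95% counting interval 260 to 57230.0; adjusted p = 0.0377, edgeR). With hypoxic replicate 1 left out the adjusted p was 0.107, with hypoxic replicate 2 left out 0.0864, with any 1 of the 4 embryonic libraries left out 0.114 to 0.116, and with limma-voom 0.157, so the call was lost in each. Hypoxia against normoxia did not pass for Mkrn3 (ratio of normoxia to hypoxia 205, interval 36.5 to 8150.0, adjusted p = 0.213, edgeR).

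**Figure D5:**
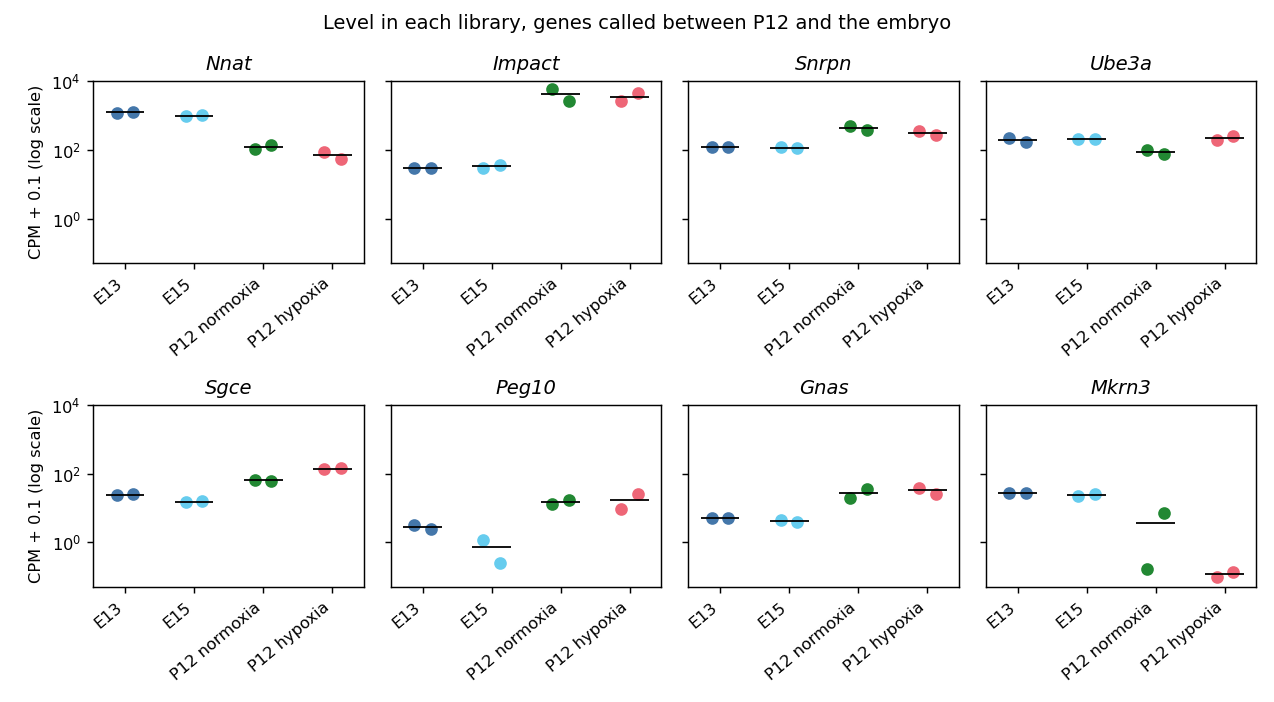
CPM + 0.1 (log axis) in each library (points) with the mean of the 2 libraries (bars) for 8 of the genes called between P12 and embryonic cells. Nnat lies above 960 CPM in the embryo and at 55.5 to 135 at P12, Impact at 30.1 to 35.4 in the embryo and 2555 to 6020.0 at P12, and Ube3a is lowest in normoxia.

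Impact, a regulator of translation that restrains the stress kinase GCN2 and is abundant in brain, had 30.1 CPM in both E13 libraries, 30.2 and 35.4 at E15, 6020.0 and 2639 in normoxia and 2555 and 4381 in hypoxia. It ranked between 20 and 39 among the gene rows at P12 and between 5285 and 5835 in the embryo. On the log2 scale the difference from the embryo was 7.11 (SE 0.41, adjusted p = 0.000429, edgeR) in normoxia and 6.79 (SE 0.41, adjusted p = 0.000422, edgeR) in hypoxia. Astrocyte markers were called higher at P12 as well, 7 of the 7 tested in each condition, against 12.1% (normoxia) and 13.2% (hypoxia) of all tested genes. Other lists also rose. Of 15 radial glia and progenitor markers, 10 were called higher in normoxia and 11 in hypoxia. Of 10 oligodendrocyte lineage markers, 7 and 8 were, and of 8 tested fibroblast and mural markers, 3 and 3. In these lists 0 were called lower. The part of any of these lists in the Impact difference was not tested. The conditions overlapped at P12 (log2 fold change −0.32, SE 0.43, adjusted p = 0.824, edgeR).

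Nnat, which encodes neuronatin, a small membrane protein of developing neurons and endocrine cells, had 1203 and 1258 CPM at E13, 964 and 1015 at E15, 102 and 135 in normoxia and 89.0 and 55.5 in hypoxia. It ranked between 24 and 41 among the gene rows in the embryo, and every P12 library was below every embryonic one. Levels differed on the log2 scale by −3.22 (SE 0.29, adjusted p = 0.00153, edgeR) in normoxia and −3.93 (SE 0.30, adjusted p = 0.000833, edgeR) in hypoxia. Neuron markers were called lower at P12 as well, 4 of 10 in normoxia and 7 of 10 in hypoxia, against 5.68% and 12.9% of all tested genes. The list was split in normoxia. There 2 of 10, Snap25 and Syt1, lay above the embryo without overlap and 7 below, against 27.3% and 32.1% of all tested genes. DESeq2 called 2 higher and 7 lower in normoxia, where edgeR called 0 higher. The part of the neuron markers in the Nnat difference was not tested. Hypoxic libraries lay below normoxic ones without passing (log2 fold change −0.71, SE 0.28, adjusted p = 0.266, edgeR).

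Gnas, which encodes the alpha subunit of the stimulatory G protein and several imprinted variants, had 5.17 and 4.95 CPM at E13, 4.51 and 3.68 at E15, 19.4 and 36.5 in normoxia and 38.8 and 25.7 in hypoxia. P12 libraries were all higher than embryonic ones. The difference on the log2 scale was 2.62 (SE 0.55, adjusted p = 0.0284, edgeR) in normoxia and 2.82 (SE 0.55, adjusted p = 0.0172, edgeR) in hypoxia. Both calls were lost with total-count scaling (0.0844 and 0.0621) and without any 1 embryonic library (0.167 to 0.18 and 0.11 to 0.12), and the normoxic one also without normoxic replicate 2 (0.0607) and without a low-count filter (0.0644). Of its exonic bases, 22% are shared with the opposite-strand genes Nespas and Gm20721. Zdbf2, a zinc finger gene known to affect newborn growth, had 16.3 and 15.7 CPM at E13, 9.16 and 16.9 at E15, 35.4 and 12.9 in normoxia and 17.02 and 0.074 in hypoxia, and passed no comparison.

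On chromosome 6, Sgce, which encodes epsilon-sarcoglycan, a protein of the dystrophin-associated complex whose human gene is mutated in myoclonus-dystonia, lies head to head with Peg10, derived from a retrotransposon and needed in the placenta. Sgce had 23.7 and 24.7 CPM at E13, 14.9 and 15.4 at E15, 65.3 and 62.3 in normoxia and 133 and 142 in hypoxia. Replicates were close in every group and no 2 groups overlapped. The log2 fold change against the embryo was 1.74 (SE 0.30, adjusted p = 0.0162, edgeR) in normoxia, lost with total-count scaling (0.113), without normoxic replicate 1 (0.0612) and without any 1 embryonic library (0.119 to 0.125), and 2.84 (SE 0.31, adjusted p = 0.00246, edgeR) in hypoxia. Hypoxia against normoxia gave 1.11 (SE 0.37, adjusted p = 0.215, edgeR), called by DESeq2 (adjusted p = 4.95e-07) and without hypoxic replicate 1 (0.0497).

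Peg10 had 3.18 and 2.35 CPM at E13, 1.09 and 0.145 at E15, 12.7 and 16.6 in normoxia and 9.52 and 24.7 in hypoxia, so that P12 libraries were all higher. It passed in hypoxia against the embryo (log2 fold change 3.70, SE 0.94, adjusted p = 0.0356, edgeR) and just missed in normoxia (3.48, SE 0.93, adjusted p = 0.0525, edgeR). The hypoxic call was lost in 9 of 16 alternatives, among them limma-voom (0.188), no low-count filter (0.059), total-count scaling (0.0758), the removal of hypoxic replicate 2 (0.0962) and of any 1 embryonic library (0.0701 to 0.169).

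Mest and Copg2 overlap tail to tail on opposite strands over 912 exonic bases, which are 23.1% of Mest and 17.8% of Copg2, so their counts can be shared where strand is not used. Mest, which encodes an alpha/beta-hydrolase fold protein of mesoderm and brain and is expressed from the paternal copy, had 67.8 and 86.2 CPM at E13, 38.8 and 45.5 at E15, 0.318 and 20.8 in normoxia and 52.8 and 2.52 in hypoxia. Both P12 groups had 1 library far below the other. Copg2, a subunit of the COPI vesicle coat, had 93.6 and 82.5 CPM at E13, 80.3 and 83.7 at E15, 45.4 and 78.8 in normoxia and 18.7 and 135 in hypoxia. Neither passed a comparison.

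Among the growth genes, the insulin-like growth factor Igf2 was nearly absent, with at most 0.214 CPM (E13 replicate 2) and 0 counts in all P12 libraries; 3 counts in a P12 library would be 0.0953 to 0.111 CPM. In the annotation 62.8% of its exonic bases are shared with a read-through transcript, so its level is uncertain. H19, the long non-coding RNA expressed from the other parental copy of that domain, had 41.6 CPM in hypoxic replicate 2 alone and at most 0.891 in the other 7 libraries. Igf2r, the receptor that takes IGF2 to lysosomes for degradation, had 27.9 and 33.3 CPM at E13, 23.6 and 29.8 at E15, 4.89 and 11.3 in normoxia and 6.89 and 1.48 in hypoxia. Every P12 library was below every embryonic one, with log2 fold changes of −1.82 (SE 0.87, adjusted p = 0.201, edgeR) in normoxia and −2.77 (SE 0.92, adjusted p = 0.0727, edgeR) in hypoxia, neither passing. Airn, the antisense RNA that silences paternal Igf2r, never exceeded 0.418 CPM.

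Grb10, an adaptor that dampens insulin and IGF receptor signalling, had 190.0 and 218 CPM at E13, 72.1 and 75.2 at E15, 47.0 and 63.9 in normoxia and 0.0673 and 19.8 in hypoxia. The groups were ordered from E13 down to hypoxia without overlap, but no comparison passed (log2 fold change −2.48, SE 1.78, adjusted p = 0.558, edgeR, in hypoxia against normoxia). Its neighbour Ddc, the decarboxylase of dopamine and serotonin synthesis, was listed above 0 in 1 library (0.358 CPM, normoxic replicate 2). Plagl1, a zinc finger transcription factor that regulates other imprinted genes, passed no comparison and overlapped in all, with 56.6 and 46.1 CPM at E13, 49.9 and 32.1 at E15, 55.9 and 23.1 in normoxia and 36.8 and 49.1 in hypoxia.

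Kcnq1ot1, the antisense RNA that silences its domain on chromosome 7, had 55.4 and 11.6 CPM at E13, 27.4 and 18.9 at E15, 34.3 and 6.39 in normoxia and 1.11 and 2.92 in hypoxia. Hypoxic libraries were the lowest, with log2 fold changes of −3.33 (SE 1.26, adjusted p = 0.255, edgeR) against normoxia and −3.79 (SE 1.22, adjusted p = 0.0686, edgeR) against the embryo. Of its targets, Phlda2, a brake on placental growth, had 0 counts in all libraries, and Slc22a18, a transporter gene, had 0.501 and 0.0713 CPM at E13 and 0 elsewhere.

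The partners of IGF2 and its receptor were 16 listed genes, of which 14 were tested. None was called by edgeR in hypoxia against normoxia, where 1 was higher and 2 were lower at an unadjusted p under 0.05, against 18.2% of all genes in either direction. Normoxic P12 cells had 3 higher and 2 lower than the embryo (list median log2 fold change −0.89), against 12.1% and 5.68% of all tested genes. Hypoxic cells had 4 higher and 4 lower (median −0.16), against 13.2% and 12.9%. Igf1, the other IGF ligand, had 279 and 162 CPM in normoxia, 109 and 199.6 in hypoxia and 0 counts in all embryonic libraries, at least 4234-fold higher in normoxia and 2963-fold in hypoxia. Igf1r, the receptor through which both ligands signal, exceeded the embryo by 5.75 (SE 0.35, adjusted p = 0.00047, edgeR) in normoxia and 5.78 (SE 0.35, adjusted p = 0.000442, edgeR) in hypoxia. Akt1, a kinase downstream of it, was lower by a log2 fold change of −1.57 and −2.02.

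Of 28 genes that set or keep imprints, 25 were tested, and again none was called by edgeR in hypoxia against normoxia. At an unadjusted p under 0.05, 5 were higher and 3 lower, against 18.2% of all genes in either direction. In normoxia against the embryo 5 were higher and 3 lower (median log2 fold change −0.15), against 12.1% and 5.68% of all tested genes. In hypoxia 7 were higher and 4 lower (median 0.58), against 13.2% and 12.9%. Zfp57, whose product reads methylated TGCCGC, had 60.5 and 67.7 CPM at E13, 94.8 and 106 at E15, 375 and 410.0 in normoxia and 350 and 878 in hypoxia. It was higher at P12 by 2.29 (SE 0.36, adjusted p = 0.0113, edgeR) in normoxia and 2.94 (SE 0.36, adjusted p = 0.00383, edgeR) in hypoxia. Dnmt3a, which lays down DNA methylation, was higher by 4.94 (SE 0.31, adjusted p = 0.000515, edgeR) and 4.42 (SE 0.31, adjusted p = 0.000665, edgeR). Ctcf, the insulator protein of the H19-Igf2 domain, was called in hypoxia and not in normoxia (log2 fold change −3.09, SE 0.57, adjusted p = 0.0142, edgeR); it had 8.21 and 22.4 CPM there and 87.2 and 51.7 in normoxia, a difference that was not called.

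Of 43 further genes reported as imprinted in mouse, 42 were in the files and 29 were tested, and 3 fell in hypoxia against normoxia (2.82% of all tested genes did), of which 2 are described. Begain, a postsynaptic protein gene near Dlk1, had 9.62 and 6.03 CPM in normoxia and 0 in both hypoxic libraries, at least 73.9-fold lower with the floor of 3 counts in each library (adjusted p = 0.0315, edgeR). Mcts2, a retrogene within H13, had 8.80 and 13.3 CPM against 1 count in each hypoxic library (ratio 313, 95% counting interval 86.4 to 2591; adjusted p = 0.0228, edgeR). None rose. Against the embryo, 6 were higher and none lower in normoxia, against 12.1% and 5.68% of all tested genes (median log2 fold change 0.64), among them Phactr2, a regulator of protein phosphatase 1 and actin, by 10.32 (SE 0.62, adjusted p = 0.000469, edgeR), and the membrane tetraspanin gene Cd81 by 4.20 (SE 0.26, adjusted p = 0.00048, edgeR). In hypoxia 4 were higher and 4 lower, against 13.2% and 12.9% (median 0.12). Cdkn1c, a cell cycle inhibitor gene of the Kcnq1ot1 domain, had 292 and 279 CPM at E13, 133 and 93.0 at E15, 10.1 and 0.13 in normoxia and 0 in both hypoxic libraries, at least 1882-fold below the embryo (adjusted p = 0.0248, edgeR).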

How the data were processed

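Deposited files held raw counts per gene, 1 file per library, made by the authors with cutadapt, STAR and Subread on GRCm38, per the submitters' processing notes. Tool versions, annotation release, strand setting and treatment of multi-mapping reads were not given in the sources used here, and the labels' protocols name the NEBNext Ultra II kit. Each file had 55487 rows. The 1980 rows naming no gene (0.205% to 0.266% of counts) were left out. Coordinates come from GENCODE M21, matched by symbol for 51695 rows (96.6%). No row holds the tdTomato reporter.

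Tests used edgeR 4.0.16 in R 4.3.3 (glmQLFit, glmQLFTest, two-sided): TMM scaling, filterByExpr (minimum count 10, total 15; 19936 genes), 4 groups over all 8 libraries, 4 residual degrees of freedom, threshold 0.05. SE values derive from the F statistic. Ratios with 1 to 3 counts carry exact 95% counting intervals, and a group at 0 was set to 3 counts in each of its libraries. Alternatives included DESeq2 1.42.0 and limma 3.58.1; Python 3.11.15 made tables and figures. On simulated counts for hypoxia against normoxia (18997 genes), 7 of 100 genes changed 16-fold and 0 of 100 changed 4-fold were recovered, with 0 false calls. The simulation gave each gene the same spread in every group. Real replicates were less alike at P12 (r = 0.771 and 0.696) than in the embryo (0.946 and 0.955). The simulation therefore does not measure false calls under such unequal spread. The members, lists and the rule to account for all 34 members and name called list genes were chosen with earlier results of these data known. A result that is withheld is not reported here.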

Additional observations from a re-analysis of the deposited data

How the results depend on the processing

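Depth was 36252027 to 47084796 counts per library, at which 3 counts are 0.0482 to 0.111 CPM, and the part of depth in these comparisons was not tested. For hypoxia against normoxia the 602 called genes became 3981 with DESeq2, 295 with no low-count filter, 0 with limma-voom (1699 at an unadjusted p under 0.05), 0 with only the compared groups (1558 unadjusted), 1 with the replicate block, and 0 to 3018 when 1 library was left out (0 for each embryonic library, 3018 and 1740 for hypoxic replicates 1 and 2, 922 and 982 for normoxic replicates 1 and 2). The 3 imprinted genes became 10 with DESeq2, 0 with limma-voom, the compared groups alone or the replicate block, and 0 to 8 without 1 library (8 and 5 for hypoxic replicates 1 and 2, 5 for normoxic replicate 1). For E15 against E13 the 0 genes became 373 with DESeq2, 935 with limma-voom and 229 with the compared groups only, and the 0 imprinted genes became 1, 4 and 1. For normoxic P12 against the embryo the 3541 genes became 7252 with DESeq2, 6731 with the compared groups only, 1705 with the replicate block and 928 to 5990 without 1 library; the 8 imprinted genes became 5 with no low-count filter, 4 with the replicate block and 4 to 12 without 1 library. For hypoxic P12 against the embryo the 5208 genes became 9001 with DESeq2, 2390 with limma-voom, 2868 with the replicate block and 1562 to 6836 without 1 library; the 9 imprinted genes became 5 to 13 without 1 library. Over all genes, total-count scaling turned the split of calls from 2408 higher and 1133 lower to 1699 and 2099 in normoxia, and from 2630 and 2578 to 1646 and 3704 in hypoxia. Of 542 values for single imprinted genes under an alternative, 430 kept direction and side of the threshold, 83 fell short of it, 28 passed it and 1 turned, Meg3 in hypoxic P12 cells against the embryo (−0.28 with total-count scaling, not called). With total-count scaling, fold changes short of the threshold also turned for Trappc9 in hypoxia against normoxia, Usp29 and Zdbf2 in normoxia against the embryo, and Rian, Peg3 and Ube3a in hypoxia against the embryo; Copg2 and Plagl1 turned there with relative log expression scaling. Equal replicate numbers did not pair the libraries (correlations of deviations −0.0385 to 0.00829 over 6 pairs of groups), so a call lost under the replicate block says nothing about its size. A lone library of a group was taken to vary as the other groups do. Causes of these moves were not tested.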
